A study of Homo sapiens with 38 samples.

Results

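The Regorafenib screen of Hep3B asked which gene knockouts made these liver cancer cells rarer or more frequent when they grew with the inhibitor. It comprised 4 of the 38 samples of the series, 2 libraries from cells grown with Regorafenib and 2 from cells grown with vehicle, chosen by their labels, and it gave values for 18029 genes. Hep3B is a human hepatocellular carcinoma (HCC) line. All cells carried Cas9 and the TKOv3 library of sgRNAs (guides), which holds several guides for each protein-coding gene and control guides against LacZ, luciferase and EGFP. After selection the pool was divided into groups, and 1 group was harvested at baseline (T0). The others were grown for 14 days with vehicle or with an inhibitor at the concentration that inhibits growth by 20% (IC20). Libraries with the label T1 served as vehicle, because the study describes 8 groups and the labels name the other 7. The cells are a transduced pool in culture, so the screen reads growth and survival of knockout cells beside their neighbours. No source used here says whether both libraries of a group came from separate cultures. The p-values of edgeR, a test on counts, therefore cover the spread between libraries, and that spread may be only technical. Those of NormZ, a score explained below, come from the distribution of scores over genes and take guides as observations, not libraries.

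Regorafenib is an oral inhibitor of several kinases, among them the VEGF receptors, KIT, PDGF receptors, RET and the RAF kinases, and it is given to patients with HCC after Sorafenib. The molecule is Sorafenib with a fluorine added on its central ring. In a pooled knockout screen, a guide that becomes rarer with the drug marks a gene whose loss is a disadvantage there, called a resister. A guide that becomes more frequent marks a gene whose loss is an advantage, called a sensitizer.

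The values are counts of guides. NormZ, the score of the DrugZ method, adds up the log2 ratios of all guides of a gene, each divided by a spread. That spread comes from guides of similar vehicle count and is never smaller than the one met at higher counts. Resisters score below 0 and sensitizers above. Scores were centred on their mean over genes, so a gene without counts does not score 0. CSF1R and EPHA2, with no count in these 4 libraries, both had 0.42. Total counts were 24555074 and 12096140 with vehicle and 26398422 and 14938032 with Regorafenib. Among the guides, 38.7% and 39.4% had no count with vehicle, and 43.8% and 49.1% had none with Regorafenib, against 4.34% and 6.43% at T0. Control guides were missing too: 49 of 132 had no count in either vehicle library, beside 24251 of all 66890 guides. Most non-zero counts were even numbers (92.9% to 97.3% in these 4 libraries), so counts may not equal numbers of reads.

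The identity of the cells could be checked against markers only in the RNA-seq libraries of the series, since guide counts carry no expression. In the 3 libraries labelled as Hep3B control, 5 of 19 hepatocyte genes had a mean of at least 1 FPKM, and 4 of the 19 were listed at 0. AFP, the alpha-fetoprotein for which Hep3B is known, APOA1 and TTR were among those at 0, and ALB, which encodes albumin, had a mean of 0.523 FPKM. The defining markers of the labelled line were thus absent or near 0 in these RNA libraries, and whether the screened cells share this was not tested. RNA levels below are those of the libraries labelled Hep3B control.

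Resisters outnumbered sensitizers in Hep3B cells under Regorafenib. At a one-sided p under 0.01, 333 genes were resisters (1.85%) and 145 were sensitizers (0.804%). A normal distribution of scores would by itself place a share of 0.01 of genes past each threshold, more than the share of sensitizers. In SNU-398, another HCC line described below, the numbers under Regorafenib were 286 and 124. After adjustment over all genes, 23 resisters had a false discovery rate (FDR) under 0.05, and no sensitizer did, the lowest FDR for a sensitizer being 0.284. At an unadjusted p under 0.05, 722 genes were sensitizers. With only the guides whose mean vehicle count was at least 30, sensitizers at p under 0.01 numbered 52 and resisters with an FDR under 0.05 numbered 6. Without vehicle replicate 1, resisters with an FDR under 0.05 numbered 37. The lowest scores belonged to AP4M1 with a NormZ of -7.91, CCDC88C with -5.45, ATG12 with -5.12, ZNF560 with -5.02 and NUP153 with -4.89. The highest belonged to CYB5D2 with 4.02, CYLC1 with 4.001 and FUT7 with 3.76.

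**Figure D1:**
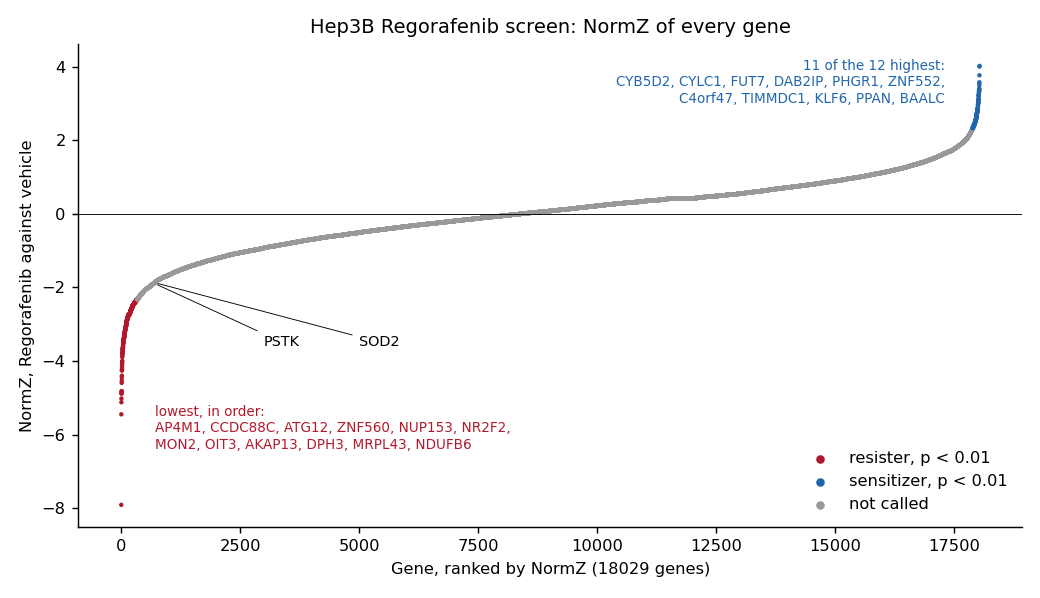
NormZ of every gene in the Hep3B Regorafenib screen (y axis, no unit), with genes ranked from the lowest to the highest score (x axis). AP4M1 stands apart at -7.91, the highest score is 4.02, and PSTK and SOD2 lie at -1.89 and -1.87, not called at p under 0.01.

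Control guides set the scale on which these scores are read. Of 84 control guides tested one by one, edgeR's quasi-likelihood test with Benjamini-Hochberg adjustment called 52 at an adjusted p under 0.05, 27 lower and 25 higher with Regorafenib. That was 61.9% of the control guides, which target no human gene, beside 54.4% of all guides. The vectors drawn by the study include EGFP as a tag, and whether guides against EGFP had an effect was not tested. Among guides with a mean vehicle count of at least 30, the log2 ratio of Regorafenib to vehicle had a standard deviation of 0.92 over 55 control guides and 0.93 over all 28957 guides. The standard deviation between both Regorafenib libraries was 0.29, and that between both vehicle libraries was 0.29. The middle 90% of these control guides ran from -2.09 to 1.03. The spread depended on abundance, with a standard deviation over control guides of 1.31 at 30 to 100 vehicle counts, 0.68 at 300 to 1000 and 0.21 at 1000 to 3000.

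**Figure D2:**
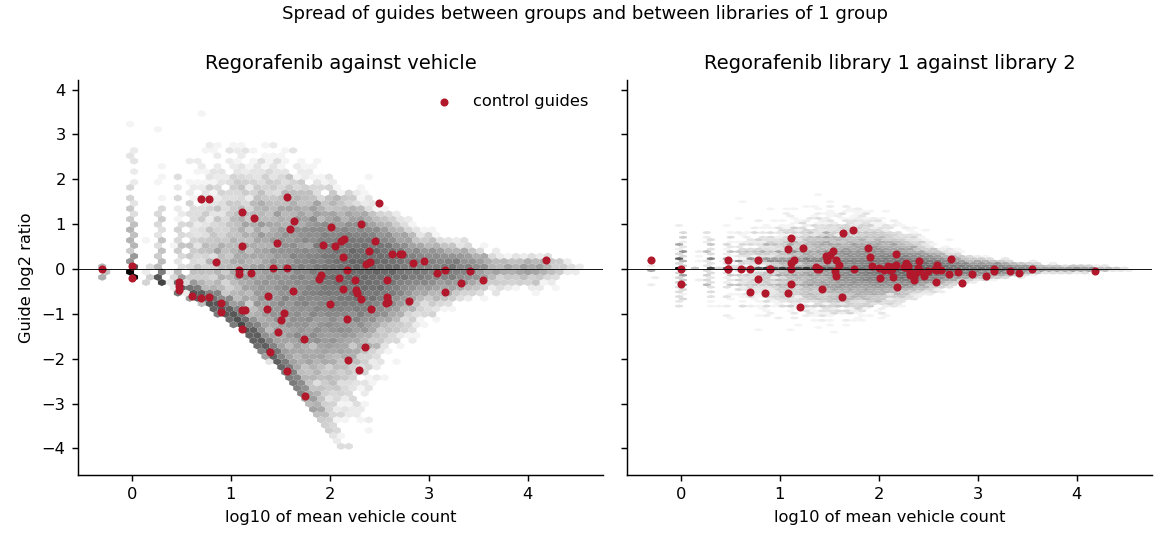
Log2 ratio of each guide (y axis) against the log10 of its mean vehicle count (x axis), between Regorafenib and vehicle on the left and between both Regorafenib libraries on the right, with darker grey for more guides and control guides in red. Control guides spread as widely as other guides on the left, while the libraries of 1 group nearly coincide on the right, and the lower edge on the left is set by guides with no count under Regorafenib.

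On counts summed per gene, edgeR called 5918 of 17851 genes lower (33.2%) and 5116 higher (28.7%) at an adjusted p under 0.05. Of the 333 resisters, 326 were also lower by edgeR, and all 145 sensitizers were also higher. Both methods read the same counts, so this overlap is no independent support. A stricter count required that every guide of a resister was lower in both libraries, together with the edgeR call. That count was 107 resisters, and the matching count was 36 sensitizers. Among all 18029 genes, every guide was lower in 450 and higher in 124, with or without a call. The strongest guide of a gene is the one whose log2 ratios, divided by their spread and added over both libraries, were largest in size. Without it, 14 of the 23 resisters with an FDR under 0.05 still had a p under 0.01.

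AP4M1, a subunit of the AP-4 complex that sorts cargo at the trans-Golgi network, had the lowest score of all. Its summed counts were 706 and 711 counts scaled to a common library total (CPM) with vehicle and 145 and 143 CPM with Regorafenib, after 273 and 276 CPM at T0. The groups did not overlap, and edgeR gave a log2 fold change of -2.30 with a standard error of 0.03. This fall rested on 1 guide, which went from counts of 18019 and 8938 with vehicle to 3516 and 1974 with Regorafenib. A guide with counts of 36 and 22 rose to 230 and 96, so the guides of AP4M1 moved in both directions. Without its strongest guide, the NormZ of AP4M1 was -0.27.

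CCDC88C, which encodes the Dishevelled-binding protein Daple, fell with each of its 4 guides. Only 2 of them had enough counts to be read, a mean of at least 30 with vehicle or with Regorafenib. It had 28.7 and 31.3 CPM with vehicle and 6.27 and 5.58 CPM with Regorafenib. Its most abundant guides went from counts of 452 and 234 to 132 and 78, and from 242 and 144 to 38 and 8. The NormZ of CCDC88C was -3.66 without its strongest guide. ATG12, the ubiquitin-like protein that is joined to ATG5 when autophagosomes form, had 54.5 and 53.3 CPM with vehicle and 11.95 and 12.1 CPM with Regorafenib. Of its 4 guides 3 had enough counts to be read and all 3 were lower, but most of the counts came from 1 of them, and its NormZ was -1.18 without it. NUP153, a nuclear pore protein, fell with 4 of 4 guides, from 19.5 and 17.7 CPM to 3.03 and 3.38 CPM, and its NormZ without the strongest guide was -2.56.

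The other leading resisters differed in how many of their guides moved. NR2F2, which encodes the nuclear receptor COUP-TFII, had 100 and 96.6 CPM with vehicle and 44.1 and 36.6 CPM with Regorafenib. AKAP13, an A-kinase anchoring protein and activator of RHOA, had 89.5 and 78.1 CPM with vehicle and 42.2 and 38.4 CPM with Regorafenib. MON2, a regulator of trafficking between endosomes and the Golgi, had 3 guides that nearly disappeared and 1 that rose from counts of 306 and 146 to 468 and 218. DPH3, needed for the diphthamide modification of elongation factor 2, had only 2 guides, and both were lower by a similar amount, with mean log2 ratios of -1.73 and -1.80. CPLX1, which encodes the SNARE-binding protein complexin 1, likewise fell evenly over 3 guides, with mean log2 ratios of -1.91, -1.86 and -1.69. Its summed counts were 27.2 and 27.6 CPM with vehicle and 7.97 and 6.62 CPM with Regorafenib.

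Some leading resisters were listed without a transcript. ZNF560 had an FPKM of 0 in the 3 RNA-seq libraries labelled Hep3B control, yet all 4 of its guides were lower, and its NormZ was -3.50 without the strongest guide. NXNL1, SYNDIG1L and FMR1NB were also listed at 0 FPKM, with NormZ of -4.25, -4.24 and -4.12. Among the resisters with RNA values, 57.8% (186 of 322) had a mean of at least 1 FPKM, beside 56.2% (9701 of 17256) of all genes. For sensitizers the share was 61.4% (86 of 140), and for the 23 resisters with an FDR under 0.05 it was 73.9% (17 of 23). The share of resisters with a transcript was thus close to that of all genes.

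**Figure D3:**
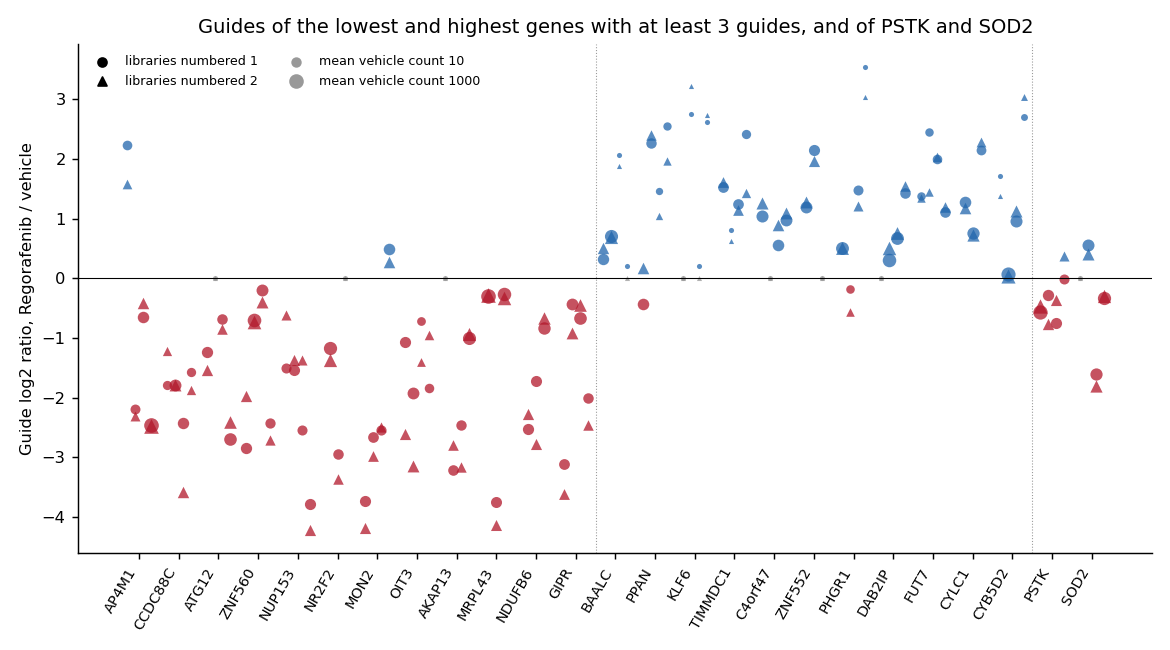
Log2 ratio of Regorafenib to vehicle (y axis) for each guide of the 12 lowest and 11 of the 12 highest genes by NormZ that have at least 3 guides, and of PSTK and SOD2 (x axis), with circles and triangles for the pairs of libraries numbered 1 and 2 and larger symbols for higher vehicle counts. The guides of CCDC88C, NUP153 and GIPR all lie below 0 and those of FUT7 and CYLC1 all above it, while AP4M1 and MON2 have guides on both sides.

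The sensitizers had a median log2 fold change of 0.84 on summed counts, and the resisters one of -1.24. Among genes with at least 2 counted guides, all counted guides were higher in 112 of 138 sensitizers and lower in 231 of 293 resisters. Of all 10189 such genes, they were higher in 1194 and lower in 1901. The same guides made the scores by which the genes were called. FUT7, a fucosyltransferase of leukocytes, had 4 of 4 guides higher. Its summed counts were 6.07 and 6.54 CPM with vehicle and 22.7 and 21.8 CPM with Regorafenib, a log2 fold change of 1.83 with a standard error of 0.16. Its guides went from 14 and 4 to 60 and 24, from 10 and 8 to 118 and 40, from 36 and 16 to 194 and 104, and from 98 and 56 to 242 and 168. These counts were small with vehicle, and FUT7 was listed at 0 FPKM in the libraries labelled Hep3B control. CYLC1, a protein of the sperm head, rose with 3 of 3 guides, from 41.6 and 41.8 CPM to 88.7 and 88.0 CPM, and was also listed at 0 FPKM.

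CYB5D2, a heme-binding protein, had the highest NormZ but a small change of its sum, from 353 and 357 CPM to 409 and 404 CPM. Its most abundant guide hardly moved, from counts of 8604 and 4344 to 9724 and 5495, while a guide with 584 and 242 rose to 1232 and 664. DAB2IP, a RAS GTPase-activating protein that restrains RAS signalling, had 200 and 191 CPM with vehicle and 282 and 303 CPM with Regorafenib. All 3 of its guides that had counts were higher, with a log2 fold change of 0.57 and a standard error of 0.04. HSPB3, a small heat shock protein, rose with 4 of 4 guides by similar amounts, with mean log2 ratios of 0.42, 0.90, 0.96 and 0.52.

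KLF6 was high with guides that had no vehicle count. KLF6, a zinc finger factor described as a tumour suppressor in HCC, had no count with vehicle for any guide, and 2 of its guides had 76 and 62 and then 68 and 42 with Regorafenib. A count of 0 leaves levels of up to 3 counts undetected, which was 0.122 and 0.248 CPM in the vehicle libraries, counting error only. TIMMDC1, an assembly factor of respiratory complex I, had 9.91 and 10.9 CPM with vehicle and 32.9 and 32.5 CPM with Regorafenib. Each of its 4 guides was higher, and 3 of them had enough counts to be read. TMEM126B, another assembly factor of complex I, rose from 19.3 and 15.9 CPM to 33.3 and 33.2 CPM with 4 of 4 guides higher.

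For the lists of genes below, a resister, a sensitizer or a call is one by NormZ at p under 0.01, to be read beside 1.85% and 0.804% of all genes, and calls by edgeR are named as such, beside 33.2% lower and 28.7% higher of all genes. Of 19 target kinases, 1 was a resister and none was a sensitizer, and their median NormZ was -0.02 against 0.08 for all genes. By edgeR 6 were lower and 2 higher. The resister was MAPK11, the p38 beta kinase, with a NormZ of -2.64. It had 13.1 and 16.5 CPM with vehicle and 9.22 and 8.83 CPM with Regorafenib, but its most abundant guide kept counts of 250 and 136 against 250 and 158 with vehicle. BRAF had a NormZ of -0.34, and KDR, the main VEGF receptor, had -0.54 with only 1 guide counted and 0 FPKM. For BRAF, summed counts were 7.69 and 6.08 CPM with vehicle and 7.60 and 6.49 CPM with Regorafenib, so the groups overlapped.

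None of the 33 genes of the RAS-RAF-MEK-ERK pathway was called by NormZ, and their median NormZ was 0.15, while edgeR called 11 lower and 12 higher. The lowest was ERBB2, a receptor kinase of the EGFR family, with -2.22, and the highest was MAP2K1, which encodes MEK1, with 1.96. In the PI3K-AKT-mTOR pathway 1 of 36 genes was a resister, RPS6KB1, the S6 kinase downstream of mTOR, with a NormZ of -2.49. It had 13.2 and 18.2 CPM with vehicle and 5.98 and 7.92 CPM with Regorafenib, and its NormZ was -0.47 without the strongest guide. None of 18 genes of drug metabolism and transport was called by NormZ, and edgeR called 5 of 17 tested lower and 7 higher. Their median NormZ was 0.58, beside 0.42 for a gene without counts. None of 31 apoptosis genes, 21 genes of the unfolded protein and integrated stress responses, 25 cell cycle genes or 24 Wnt pathway genes was called by NormZ either. By edgeR, 8 apoptosis genes were lower and 10 higher, with 8 and 5 of the stress response genes, 12 and 3 of the cell cycle genes and 8 and 7 of the Wnt genes.

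**Figure D4:**
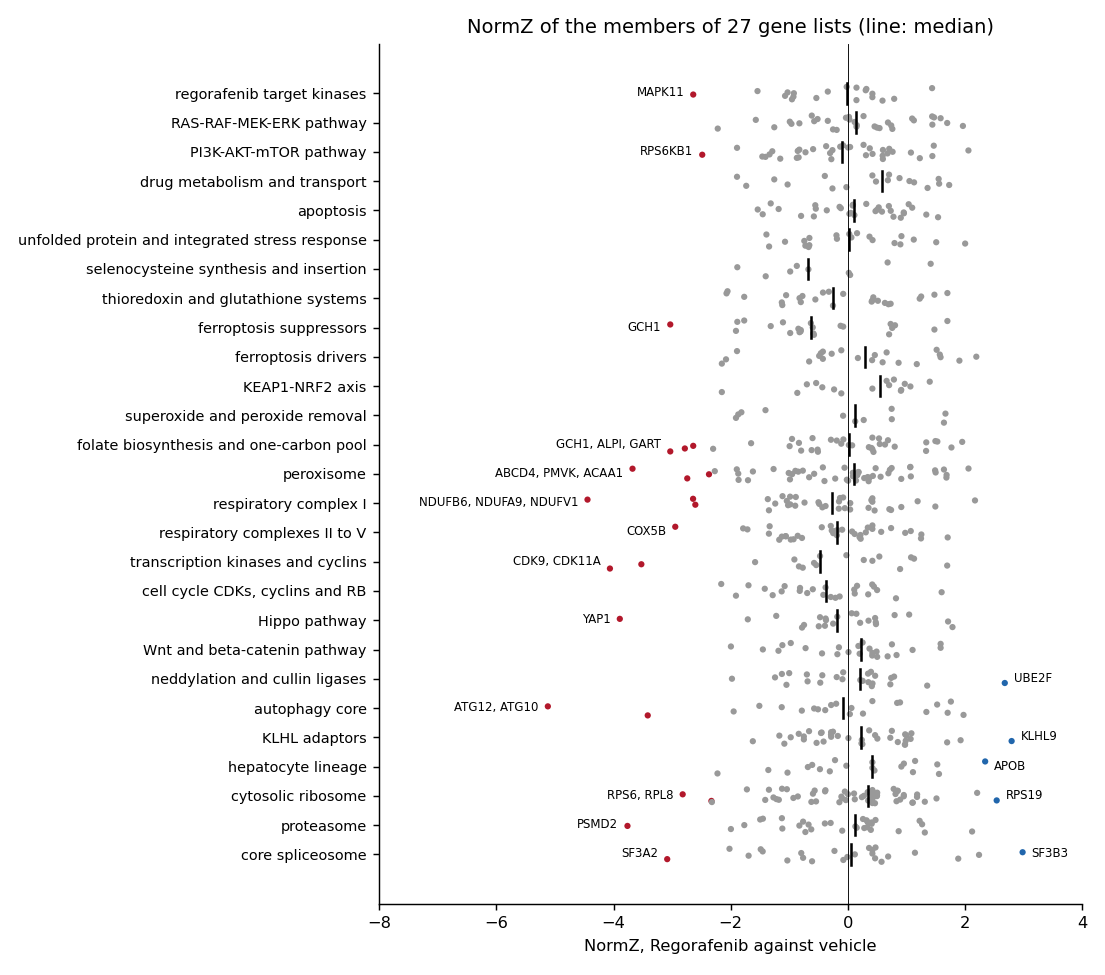
NormZ (x axis) of the measured members of 27 gene lists (rows), with red for resisters and blue for sensitizers at p under 0.01, grey for members not called, and a black line at each median. Medians lie between -0.67 for selenocysteine synthesis and 0.58 for drug metabolism, and the members called are named beside their points. A gene without counts scores 0.42.

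Genes that guard against ferroptosis, the iron-dependent death by lipid peroxidation, had a median NormZ below that of all genes. Of 23 suppressors of ferroptosis 1 was a resister, and their median NormZ was -0.63 against 0.08 for all genes, while 22 drivers of ferroptosis had no NormZ call and a median of 0.29. A gene without counts scored 0.42, above the medians of both lists. By edgeR, 16 of the suppressors were lower and 4 higher, and 7 of the drivers were lower and 8 higher. The resister was GCH1, the first enzyme of tetrahydrobiopterin synthesis, with a NormZ of -3.03. It fell from 10.2 and 11.4 CPM to 1.25 and 2.60 CPM, and its 3 guides had mean log2 ratios of -2.08, -1.85 and -0.97. Only 1 of them had enough counts to be read. GPX4, the selenoenzyme that reduces lipid peroxides, had a NormZ of -0.08, with 11.2 and 12.6 CPM with vehicle and 11.5 and 10.1 CPM with Regorafenib. Only 2 of the guides of GPX4 had counts, and they moved in opposite directions from 82 and 38 to 226 and 120 and from 210 and 124 to 86 and 36, so the sum hardly changed. SLC7A11, the cystine importer, had a NormZ of 1.48 from 1 counted guide. ACSL4, which supplies polyunsaturated lipids for peroxidation, had 0.46, close to the score of a gene without counts.

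PSTK, the kinase that prepares serine on its tRNA for conversion to selenocysteine, was not called by NormZ, with a score of -1.89, rank 690 from the lowest and an FDR of 0.771. It had 436 and 432 CPM with vehicle and 306 and 321 CPM with Regorafenib, after 410 and 393 CPM at T0. The groups did not overlap, and the log2 fold change was -0.47 with a standard error of 0.03. Of its 4 guides, 3 were lower by similar amounts, with mean log2 ratios of -0.52, -0.52 and -0.56, and the least abundant was at 0.17. The most abundant guide, with counts of 10893 and 5309 with vehicle and 7914 and 4734 with Regorafenib, was at -0.52. The standard deviation over all 1044 guides with more than 3000 vehicle counts was 0.21, and 2 of those were control guides. None of the 9 genes of selenocysteine synthesis and insertion was called by NormZ, their median NormZ was -0.67, and edgeR called 5 lower, PSTK among them, and 2 higher. SOD2, the superoxide dismutase of mitochondria, had a NormZ of -1.87, from 1 guide that was lower by 1.70 on the log2 scale, 1 lower by 0.32 and 1 higher by 0.48. Its summed counts were 140 and 145 CPM with vehicle and 116 and 117 CPM with Regorafenib.

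The thioredoxin and glutathione systems had no NormZ call among 25 genes, with TXNRD3, a thioredoxin reductase, lowest at -2.07, and edgeR called 10 of 24 tested lower and 8 higher. KEAP1, which holds the antioxidant factor NRF2 in check, had a NormZ of -2.15, which missed the threshold, and was lower by edgeR. Its summed counts were 72.8 and 76.4 CPM with vehicle and 57.7 and 58.6 CPM with Regorafenib. None of the 16 genes of the KEAP1-NRF2 axis and none of the 11 genes of superoxide and peroxide removal was called by NormZ. By edgeR, 5 and 4 genes of these lists were lower, and 7 and 4 were higher.

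Of 36 genes of respiratory complex I, which passes electrons from NADH to ubiquinone, 3 were resisters, beside 1.85% of all genes, and none was a sensitizer, and the median NormZ was -0.27. NDUFB6, an accessory subunit, was the strongest, with a NormZ of -4.45 and an FDR of 0.0066. It had 19.1 and 17.3 CPM at T0, 47.7 and 48.1 CPM with vehicle and 21.8 and 23.0 CPM with Regorafenib. NDUFB6 thus rose with vehicle and lay above T0, not below it, with Regorafenib. Its 3 guides had mean log2 ratios of Regorafenib to vehicle of -2.40, -2.25 and -0.75. NDUFA9 had 2.70 and 2.59 CPM at T0, 5.46 and 5.61 CPM with vehicle and 0.0738 and 0.260 CPM with Regorafenib. NDUFV1, which binds NADH, had 30.2 and 29.0 CPM at T0, 50.6 and 45.2 CPM with vehicle and 34.1 and 30.6 CPM with Regorafenib. Its levels with Regorafenib were thus close to those at T0. The assembly factors TIMMDC1 and TMEM126B, described above, moved the opposite way, so genes tied to complex I were found on both sides. In complexes II to V, 1 of 37 genes was a resister, the cytochrome oxidase subunit COX5B, with a NormZ of -2.95. MRPL43, a protein of the mitochondrial ribosome, had a NormZ of -4.54, but its sum fell only from 805 and 817 CPM to 671 and 680 CPM, and 1 guide fell from counts of 152 and 100 to 0 in both libraries. MRPL52, another protein of that ribosome, was a sensitizer with a NormZ of 3.08 and 3 of 3 guides higher.

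Of 17 transcription kinases and cyclins 2 were resisters, beside 1.85% of all genes, and the median NormZ was -0.48. By edgeR 7 of the list were lower and 5 higher. CDK9, the kinase of P-TEFb that releases paused RNA polymerase II, had a NormZ of -4.06 and an FDR of 0.0231. It had 56.1 and 55.9 CPM at T0, 37.8 and 31.8 CPM with vehicle and 18.7 and 17.3 CPM with Regorafenib, and 4 of 4 guides were lower. The other, CDK11A, has a nearly identical neighbour, CDK11B, so its guides and counts could not be assigned to 1 of the genes with certainty. PSMD2, a subunit of the regulatory particle of the proteasome, was the only resister among 31 proteasome genes, with a NormZ of -3.76. It had 47.5 and 46.5 CPM at T0, 33.9 and 34.4 CPM with vehicle and 14.2 and 15.7 CPM with Regorafenib, again with 4 of 4 guides lower.

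Genes that cells need for growth had medians below T0 in both groups. For 56 tested ribosomal protein genes the median log2 fold change against T0 was -0.53 with vehicle and -0.73 with Regorafenib, and the proteasome had -0.46 and -0.77, beside -0.04 and -0.09 for all genes. The core spliceosome had -0.26 and -0.84. Both columns share the T0 libraries. In the direct comparison of Regorafenib with vehicle, the median log2 fold changes of these lists were -0.00, -0.06 and -0.23, beside -0.03 for all genes. In the core spliceosome 1 of 24 genes was a resister, SF3A2, and 1 a sensitizer, SF3B3. Of 61 ribosomal genes 2 were resisters, RPL8 and RPS6, which had only 1 guide, and 1 was a sensitizer, RPS19. Olfactory receptors, which these cells do not use, gave 4 resisters and 1 sensitizer among 338 genes.

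Of 52 peroxisome genes and of 35 genes of folate biosynthesis and the one-carbon pool, 3 each were resisters, beside 1.85% of all genes. Those of the peroxisome were ABCD4 with a NormZ of -3.68, PMVK with -2.74 and ACAA1 with -2.37, and the list's median was 0.10. ABCD4, a transporter that takes part in moving cobalamin out of lysosomes, had 245 and 243 CPM with vehicle and 175 and 177 CPM with Regorafenib, with 4 of 4 guides lower. Those of the folate list were GCH1, ALPI and GART, and its median was 0.02. GART, a trifunctional enzyme of purine synthesis, had 35.6 and 35.4 CPM with vehicle and 12.5 and 13.1 CPM with Regorafenib. ALPI, an intestinal alkaline phosphatase, shares much of its sequence with the placental enzymes.

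Single members were called in further lists. YAP1, the effector that the Hippo pathway restrains, was the only resister among 23 Hippo genes, with a NormZ of -3.89 and an FDR of 0.0404. It had 43.6 and 54.5 CPM with vehicle and 24.1 and 23.5 CPM with Regorafenib. Each guide had a negative mean log2 ratio (-2.01, -2.35, -0.78 and -0.57), and 2 of them had enough counts to be read. Among 22 autophagy genes, ATG12 and ATG10, the enzyme that helps to join ATG12 to ATG5, were resisters, and the median was -0.08. ATG10 had 0.726 and 1.09 CPM at T0, 7.61 and 7.32 CPM with vehicle and 0.664 and 1.43 CPM with Regorafenib, so its levels with Regorafenib were close to those at baseline. Among neddylation and cullin ligase genes, UBE2F, a conjugating enzyme for NEDD8, was a sensitizer with a NormZ of 2.68 (1 of 25). Among adaptors of cullin 3, KLHL9 was a sensitizer with 2.79 (1 of 37), and 4 of its 4 guides were higher. In the hepatocyte list, 1 of 19 genes was called, the sensitizer APOB, from 1 guide with counts of 2 and 0 with vehicle and 134 and 120 with Regorafenib.

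Regorafenib and Sorafenib were compared directly in Hep3B, without the vehicle libraries. This was 1 pair of inhibitors, both used for 14 days at a stated IC20. No source used here gives their concentrations or the growth of the pools in the screen. Whether their effects on growth were equal was not tested. With Sorafenib in the place of vehicle, 317 genes were lower with Regorafenib at p under 0.01 (1.76%) and 231 were higher (1.28%), of which 27 and 6 had an FDR under 0.05. With only guides of a mean count of at least 30, 33 genes were higher. AP4M1 differed with a NormZ of -5.99 (FDR 6.35e-06), having 1002 and 987 CPM with Sorafenib against 145 and 143 CPM with Regorafenib. FUT7 differed in the other direction, with 5.06 (FDR 0.00189), having 0.484 and 1.06 CPM with Sorafenib and 22.7 and 21.8 CPM with Regorafenib.

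Other genes differed where the Regorafenib libraries lay close to vehicle. TSTA3, which makes GDP-fucose, had 0.677 and 1.31 CPM with Sorafenib, a mean of 29.9 CPM with Regorafenib and 29.2 and 27.1 CPM with vehicle, and its NormZ against Sorafenib was 5.31 (FDR 0.000991). SCCPDH, a protein of lipid droplets, had 106 and 110 CPM with Sorafenib, 25.9 and 22.3 CPM with Regorafenib and 31.0 and 31.6 CPM with vehicle, with a NormZ of -6.52 (FDR 3.22e-07). PSTK was higher with Regorafenib than with Sorafenib by a NormZ of 3.57, with an unadjusted two-sided p of 0.000351 and an FDR of 0.243. Its summed counts were 227 and 223 CPM with Sorafenib, below both the Regorafenib and the vehicle libraries. The log2 difference of PSTK, Regorafenib minus Sorafenib, was 0.47 (95% interval 0.39 to 0.56). That interval covers only the spread between libraries of a group, which may be only technical.

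For several targets and ferroptosis genes no difference between the inhibitors was called, and their log2 differences are given with intervals. For KDR the log2 difference was -0.21 (95% interval -0.65 to 0.24), for GPX4 -0.30 (-0.67 to 0.07), for SLC7A11 0.14 (-0.18 to 0.46) and for KEAP1 -0.12 (-0.28 to 0.04). These intervals come from edgeR's standard errors with 8 residual degrees of freedom and cover only the spread between libraries of a group. They therefore do not bound a difference between cultures. BRAF had 0.774 and 0.979 CPM with Sorafenib and 7.60 and 6.49 CPM with Regorafenib. Its log2 difference was 3.05 (2.29 to 3.81), but its NormZ against Sorafenib was 1.19. ACSL4 was lower with Regorafenib, with a NormZ against Sorafenib of -2.55 (unadjusted two-sided p 0.0106, FDR 0.425). It had 54.4 and 63.1 CPM with Sorafenib and 21.6 and 21.3 CPM with Regorafenib, a log2 difference of -1.44 (-1.68 to -1.21).

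SNU-398, another HCC line, was screened with Regorafenib against vehicle libraries of its own. There 286 genes were resisters at p under 0.01 (1.59%) and 124 were sensitizers (0.688%), or 58 sensitizers with only guides of a mean count of at least 30. Over the 18025 genes in both tables, NormZ had a Pearson correlation of 0.0461 across genes, which are not independent replicates. The lines shared 8 resisters, 2.40% of those of Hep3B and 2.80% of those of SNU-398, and 2 sensitizers, 1.38% and 1.61%. In addition, 3 resisters of Hep3B were sensitizers in SNU-398 and 4 sensitizers of Hep3B were resisters there.

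The share of Hep3B calls found again stands beside 1.59% and 0.688% of all genes called in SNU-398. The shared resisters were NDUFB6 (NormZ -4.45 in Hep3B and -3.20 in SNU-398), MRPL43 (-4.54 and -2.42), GART (-2.64 and -3.05), PGLS of the pentose phosphate pathway (-3.14 and -2.75), NELFB, a subunit of the complex that pauses RNA polymerase II (-2.72 and -3.70), the RNA helicase DDX10 (-2.66 and -2.48), the ATP-gated channel P2RX1 (-3.12 and -2.46) and PLEKHM3 (-2.85 and -3.02). The shared sensitizers were PLEKHA7, a protein of adherens junctions (2.51 and 2.65), and BTNL8 (3.21 and 2.88). KEAP1 had -2.15 in Hep3B and -3.46 in SNU-398, and PSTK had -1.89 and -1.13.

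A difference between the lines was tested as the difference of both NormZ over the square root of 2, adjusted over all shared genes. It passed an adjusted p of 0.05 for 6 genes. Hep3B was lower for AP4M1 (adjusted p = 0.000356), ZNF560 (0.0152), DEFB118 (0.0152), ATG12 (0.0483) and CCNB1IP1 (0.0483), and higher for ALDH9A1 (0.0436). AP4M1 had a NormZ of 0.03 in SNU-398, ATG12 one of 1.02 and ZNF560 one of 1.69. DEFB118 and ALDH9A1 were called in opposite directions, with -3.20 and 3.45 for DEFB118 and 2.97 and -3.29 for ALDH9A1, in Hep3B and SNU-398 in turn. The test takes guides as observations. Without the strongest guide in Hep3B, the Hep3B scores were -0.27 for AP4M1, -1.18 for ATG12 and -3.50 for ZNF560.

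**Figure D5:**
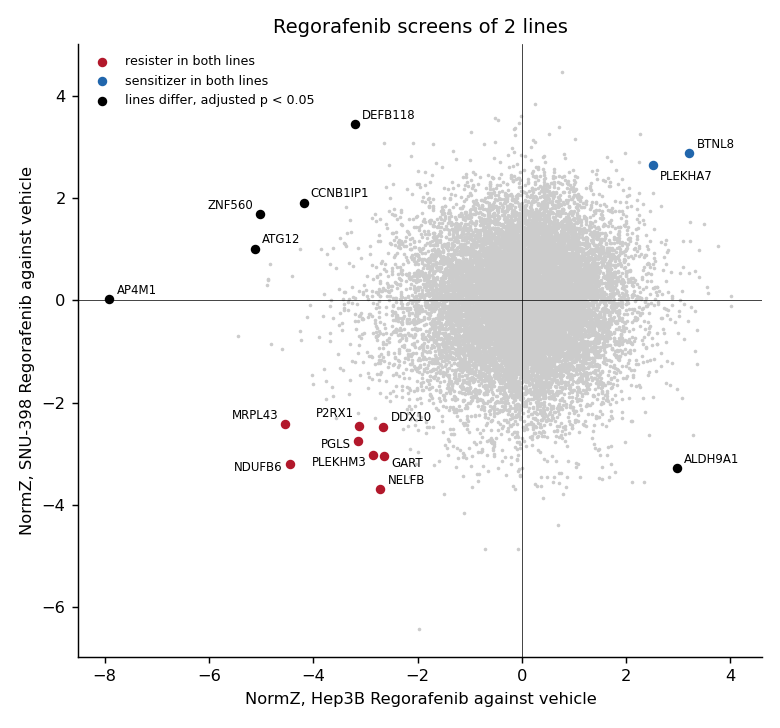
NormZ of each gene in the Regorafenib screen of Hep3B (x axis) and of SNU-398 (y axis), with genes called the same way in both lines in red and blue and genes with a difference between lines in black. The cloud has no slope to speak of (correlation 0.0461), 8 resisters and 2 sensitizers are shared, and AP4M1 lies at -7.91 in Hep3B and 0.03 in SNU-398.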

How the data were processed

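For each screen library the authors deposited guide counts as whole numbers after matching amplified guides with Bowtie2. The version and settings of Bowtie2, and the genome build, are not given in the sources used. They also deposited FPKM values for cells labelled Hep3B, for which the submitters' processing notes name HISAT2 2.0.5 and featureCounts 1.5.0-p3, of which the 3 control libraries served as a description. The authors' tables of their own RNA-seq comparison, with fold changes and p-values, were not used.

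NormZ was computed in Python 3.11.15 (numpy 2.4.6, scipy 1.17.1, pandas 2.3.3) following DrugZ. Libraries were each brought to a total of 10000000 and 5 was added as a pseudocount, and libraries of equal number were set against each other. Each log2 ratio was divided by the spread among 1000 guides of similar vehicle count. Going from high to low counts this spread was never lowered, so a guide kept the largest spread met at higher counts. Control guides were left out of the gene table. Genes passed at a one-sided normal p under 0.01. NormZ takes guides as observations, so counts were also tested per gene sum and per guide in R 4.3.3 with edgeR 4.0.16 (TMM, filterByExpr, quasi-likelihood test, Benjamini-Hochberg adjustment) over all 16 Hep3B libraries, with 8 residual degrees of freedom. DESeq2 1.42.0, another scaling, other filters and pseudocounts, the replicate block and leaving out single libraries were alternatives. The methods were also run on simulated data drawn from the vehicle profile. Those data lacked the spread between groups that control guides showed, so they cannot tell how often calls here are false. Figures were drawn with matplotlib 3.10.9.

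Named genes were the 12 lowest and 12 highest by NormZ with at least 3 guides, PSTK and SOD2, 8 fixed genes, among them targets and ferroptosis genes, genes called with all guides in 1 direction (up to 10 each way), up to 3 called members of each of 28 lists or else the most extreme, genes called the same way in both lines, and up to 5 each way against Sorafenib. MAP2K1, SYNDIG1L, FMR1NB, DEFB118, CCNB1IP1 and ALDH9A1 fell outside this rule and were chosen after their values were seen. The genes and lists were chosen with earlier results of these data known. In the table, 26 gene names had turned into dates and were kept as they stand. The labels do not say whether equally numbered libraries belong together. The correlation of the deviations of equally numbered libraries was -0.0134, which cannot by itself tell whether the samples were paired. In the T0, vehicle and Regorafenib groups of Hep3B, the library numbered 1 had the larger total count. Some genes and lists that this rule covers, in text and figures, are not reported here. A guide's place in the genome is not given, since its build is not stated.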

Additional observations from a re-analysis of the deposited data

Results flagged for a closer look

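AP4M1, ATG12 and ZNF560 are listed because their scores under Regorafenib differed between Hep3B and SNU-398 by a test of the difference itself. The adjusted p was 0.000356 for AP4M1, with a NormZ of -7.91 in Hep3B and 0.03 in SNU-398. It was 0.0483 for ATG12, with -5.12 and 1.02, and 0.0152 for ZNF560, with -5.02 and 1.69. Without the strongest guide in Hep3B, the Hep3B scores were -0.27, -1.18 and -3.50 in the same order.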

How the results depend on the processing

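Counts of resisters at p under 0.01 stayed within 1.5 times of 333 with a pseudocount of 1, median-of-ratios scaling, no replicate block and without each library in turn. Leaving out the strongest guide of each gene was an alternative chosen after the data were seen. Then 24 resisters and 27 sensitizers passed p under 0.01, and 0 resisters had an FDR under 0.05. Removing the strongest guide brings about this fall in part by construction. With guides restricted to those averaging at least 30 vehicle counts, sensitizers numbered 52, resisters with an FDR under 0.05 numbered 6 and sensitizers 1, genes higher than with Sorafenib 33, and sensitizers in SNU-398 58, with fewer guides tested. A pseudocount of 1 gave 43 resisters with an FDR under 0.05, and leaving out 1 library gave 24 to 37. The cause of these shifts was not tested. Of 64 named genes called by NormZ, 60 to 63 kept their call under the other alternatives, 36 of 61 with the filter at 30, and 22 of 63 without the strongest guide, and none turned its direction. The library numbers share no known origin. With the replicate block, edgeR called 5861 genes lower and 5086 higher, and without pairing NormZ gave 339 resisters and 142 sensitizers. DESeq2 changed no direction and no call of a named gene. Few vehicle counts limit what can be read for many genes: 24251 of 66890 guides had none in either vehicle library. The share without a count was 38.7% and 39.4% at vehicle totals of 24555074 and 12096140. Why these guides had no count was not tested.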
